A study of Mus musculus with 20 samples.

Results

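Myc and 29 genes of ribosome biogenesis were followed in mouse gastrocnemius, a calf muscle. They were chosen by gene symbol, and each gene was read from its single-gene probe set with the highest mean log2 intensity. All 30 were on the array and passed the filter on low values, among 11200 genes tested. The 10 JA16 samples came from mice given an intraperitoneal antibody against myostatin, a secreted inhibitor of muscle growth, at 0.12 mg per g body weight on day 1 and 0.09 mg per g on day 3. The 10 Saline samples came from mice given saline, and all were killed by CO2 on day 5. The labels name no strain, sex, age or genotype and do not tie each sample to a mouse of its own. In the main fit p-values measure the spread of differences between same-numbered samples. In fits without this pairing they measure the spread among samples. Either spread may therefore be technical. Values are MAS5 intensities, linear array signals in arbitrary units, and differences are log2 of JA16 over saline. In a whole muscle, fewer cells of a type and less RNA per cell cannot be told apart.

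Ribosomes are built in the nucleolus. RNA polymerase I transcribes a long precursor RNA, small nucleolar RNA-protein complexes (snoRNPs) modify it, and assembly factors fold and cut it into the RNAs of the small and large subunits. Myc, a transcription factor that binds the E-box motif CACGTG as a dimer with Max, is known for raising many of these genes, and muscle growth by added protein synthesis draws on ribosome supply.

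The E-box was searched in RefSeq promoter windows of build GRCm38.p6, from 250 bases before to 50 after each annotated start. The motif reads the same on both strands. Windows were found for 25 of the 30 genes, and 6 of these genes held an E-box (24%). The share was 12.1% of the 9069 tested genes with a window and 8.09% of all 27025 genes. Counted by window, it was 6 of 34 for the members, against 7.15% of all 32851 windows. The 6 genes were Rrn3, Nop2, Pes1, Tsr1, Utp20 and Mybbp1a, and their sequences are shown because they are the members whose start regions carry the motif. They are written in the direction of transcription, with the E-box in capitals. Those of Rrn3 and Nop2 lie upstream of the start, and for the others, whose E-box begins at bases 3 to 41 of the transcript, 22 to 30 bases around it are given.
Rrn3 (chr16:13780449-13780698, plus strand, E-boxes from -215 and -48): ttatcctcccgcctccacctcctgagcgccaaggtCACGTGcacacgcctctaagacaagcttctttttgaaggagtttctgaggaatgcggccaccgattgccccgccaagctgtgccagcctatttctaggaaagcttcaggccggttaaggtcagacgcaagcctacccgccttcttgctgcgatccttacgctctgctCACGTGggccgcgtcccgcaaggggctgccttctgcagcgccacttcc
Nop2 (chr6:125131763-125131882, plus strand, E-box from -60): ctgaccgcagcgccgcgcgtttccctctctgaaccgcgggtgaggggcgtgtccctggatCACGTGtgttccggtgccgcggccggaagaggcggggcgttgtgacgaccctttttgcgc
Pes1 (chr11:3963965-3963994, plus strand, E-box from base 3): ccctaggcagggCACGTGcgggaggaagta
Tsr1 (chr11:74898092-74898121, plus strand, E-box from base 25): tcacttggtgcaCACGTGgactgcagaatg
Utp20 (chr10:88826765-88826789, minus strand, E-box from base 38): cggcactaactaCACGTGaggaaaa
Mybbp1a (chr11:72441355-72441376, plus strand, E-box from base 41): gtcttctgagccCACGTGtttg
In JA16 against saline, 3 of these 6 genes had higher and 3 lower values, with log2 differences from -0.11 to 0.11. The other 19 genes with a window ran from -0.25 to 0.11, with 8 higher and 11 lower. Members without a window, which these ranges leave out, were Myc (0.22), Fbl (0.012), Rrp12 (0.26), Bop1 (0.27) and Npm1 (-0.36). None of these differences passed the test described next.

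None of the 30 genes passed the test of JA16 against saline. In limma with the replicate number as a block, fitted over all 11200 genes, 0 members passed a Benjamini-Hochberg adjusted p of 0.05, where 31 genes (0.277%) passed in all. The lowest adjusted p was that of Npm1, at 0.19. At an unadjusted p under 0.05 there were 3 members, Npm1 lower and Bop1 and Rrp12 higher, which is 3 of 30 against 16.2% of all genes tested. Without the block 0 members passed at either threshold, against 0.0357% and 2.65% of all genes. Log2 differences ran from -0.36 to 0.27 and lay within 0.1 of 0 for 18 members. There were 15 higher and 15 lower values, and 20 higher and 10 lower when arrays were centred on their medians. For all genes tested 45.8% were higher as scaled by the authors, and the share with centred medians was not taken. Centring moved the median over all genes from -0.016 to 0.054, and the median over members from -0.00091 to 0.068. For 28 of the 30 the 95% interval of the difference lay within 1.5-fold either way, as it did for 81.3% of all genes; the exceptions were Npm1, whose interval reached -0.60, and Myc, whose interval reached 0.71. The saline and JA16 ranges overlapped for all 30 members, as they did for all 11200 genes.

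**Figure D1:**
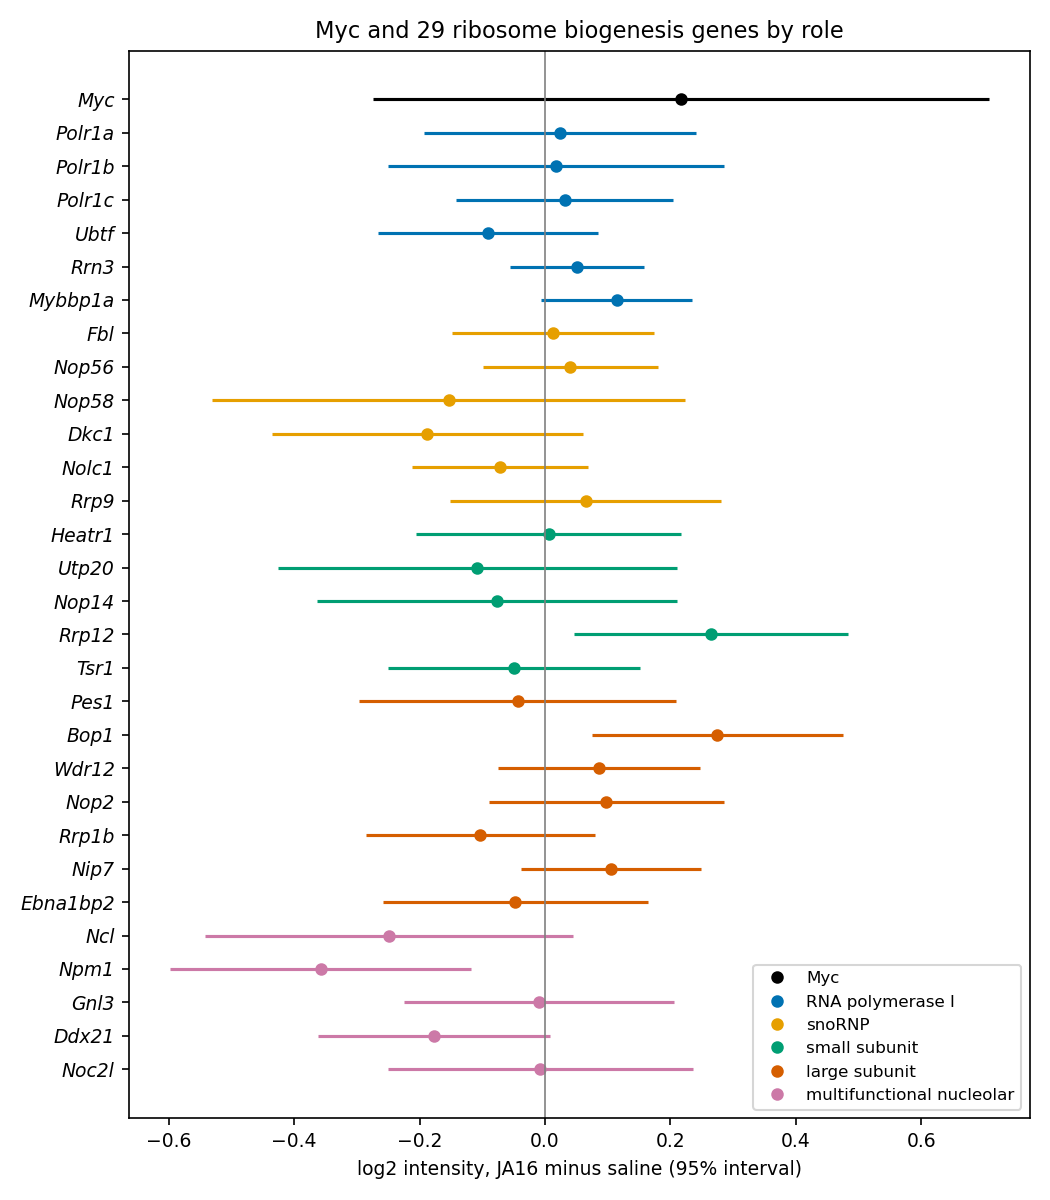
Log2 intensity of JA16 minus saline for the 30 genes, ordered by role, as the limma estimate over 10 pairs (points) with its 95% interval (lines). The intervals of Npm1, Bop1 and Rrp12 leave out 0, and no gene passed after adjustment over 11200 genes.

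The tissue carried its defining markers, and some libraries stood apart. All 10 muscle fibre markers were above the filter, with summed intensities of 185893 to 238735 in saline and 189385 to 278675 in JA16 samples. Of these, 9 had higher values in JA16 as scaled by the authors and with centred medians, and 2 with quantile normalization. Saline replicate 7 had a summed intensity of 5918 for 7 proliferation markers, against 1965 to 2692 in the other saline samples, and 37744 for 12 macrophage and leukocyte markers, against 10359 to 28339. It also had the highest saline value of 6 members, Myc, Nop58, Ebna1bp2, Ncl, Npm1 and Ddx21. For 5 others, Rrn3, Mybbp1a, Rrp9, Tsr1 and Nip7, it had the lowest. Saline replicate 8, with the lowest saline sum for macrophage and leukocyte markers, had the highest saline value of 12 members. JA16 replicate 1 had the highest JA16 sums for 5 marker lists, among them 27203 for 5 adipocyte markers, against 4983 to 10676 in the other JA16 samples, and 37352 for the macrophage and leukocyte markers, against 8698 to 26263. The part of those cells in the results was not tested. Values without pair 7 are given beside the 6 genes. Without pair 1, 12 members were higher and 18 lower, with Npm1 at -0.35, Ncl at -0.18, Rrp12 at 0.27, Bop1 at 0.25 and Nop2 at 0.051. Of the markers of other cells above the filter, 8 of 9 for fibroblasts and tendon, 8 of 10 for endothelial and mural cells, 7 of 9 for macrophages and leukocytes, 5 of 5 for Schwann cells and 4 of 4 for adipocytes had lower values in JA16, under quantile normalization and centred medians too. Over all genes 54.2% were lower as scaled by the authors. None of these markers passed, none was at 0, and summed levels overlapped, at 32231 to 55435 in saline and 22806 to 55676 in JA16 for fibroblasts and tendon. Schwann cell markers had the lowest median, -0.59, and sums of 9105 to 18599.6 in saline and 6475 to 18099 in JA16. At an unadjusted p under 0.05 there were 4 of 5 with the block and 4 of 5 without it, against 16.2% and 2.65% of all genes. Satellite cell and proliferation markers were lower for 4 of 6 each, and for 3 of 6 or fewer under one of those scalings or both. The arrays further fall into 2 sets by the log2 ratio of the 3' to the 5' beta-actin control probe set. The first set, replicates 1 to 6, had ratios of 1.33 to 1.84, and the second, replicates 7 to 10, of 0.48 to 0.64. The same ratio for the Gapdh control did not part them, at 0.21 to 0.41 in the first and 0.18 to 0.32 in the second.

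Myc itself gave a low and scattered signal. Its intensity was 79.5 at the lowest, 151 at the median and 363 at the highest in saline, and 86.0, 207 and 311 in JA16 samples. Group means were 169 ± 78.0 and 199 ± 82.4 (SD, n = 10 each). Samples of both groups were spread over the same range, with saline replicate 3 lowest and saline replicate 7 highest of all 20. The log2 difference was 0.22 (SE 0.23, 95% interval -0.27 to 0.71, limma adjusted p = 0.659), although only 4 of 10 pairs were higher. Pair 3 alone differed by 1.94, and without it the difference was 0.025. Without pair 7 it was 0.33. Among the 30 genes Myc had the largest SD between pair differences, 0.85.

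Genes of RNA polymerase I transcription were close to 0 in their differences. For 5 of 6 the value was higher in JA16, between 0.017 and 0.11, and 0 of 6 passed. Polr1a encodes the largest catalytic subunit of the enzyme. It ran from 210.1 through a median of 286 to 629.6 in saline and from 222 through 313 to 541 in JA16 samples (difference 0.024, SE 0.10). Polr1b, the partner subunit that completes the active centre, was at 0.017 (SE 0.13), and Polr1c, a subunit shared with RNA polymerase III, at 0.031 (SE 0.081). These 3 changed sign when single pairs were left out. Rrn3, which brings the polymerase to the promoter and carries the E-boxes shown above, was the most evenly measured of all 30, with an SD of 0.13 between pair differences. Its intensity was 3541, 5277 and 6178 (lowest, median, highest) in saline and 3591, 5803 and 6595 in JA16 samples, and the difference was 0.051 (SE 0.050, 95% interval -0.055 to 0.16). Here 7 of 10 pairs were higher by small amounts. Mybbp1a, a nucleolar protein tied to transcription and processing of the precursor, ran from 2216 through 3851 to 5125 in saline and from 2601 through 3797 to 5309 in JA16 samples. It was higher in 8 of 10 pairs (difference 0.11, SE 0.057, limma adjusted p = 0.33), and its other probe set was also at 0.11. Ubtf, which binds along the ribosomal DNA, was the member of this group with a lower value (-0.091, SE 0.082), from a mean of 1587 ± 398 to 1524 ± 522 (n = 10 each).

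The snoRNP genes did not share a direction. In the box C/D class, which methylates ribose, the methyltransferase gene Fbl had means of 1211 ± 239.5 and 1232 ± 297 (n = 10 each; difference 0.012, SE 0.075). Its probe sets lay on opposite sides of 0, the dimmer one at -0.037. Nop56, a scaffold of that complex, was one of the narrowest members, from 1479.8 to 1999.8 in saline and from 1454 to 2406 in JA16 samples (difference 0.041, SE 0.065). Nop58, its partner scaffold, had the widest spread on the log2 scale within each group among all 30. It ran from 126 through 212 to 644 in saline and from 63.7 through 209 to 558 in JA16 samples, with both group maxima in replicate 7. Its difference was -0.15 (SE 0.18), with pairs split 5 and 5. It was -0.15 without pair 7 as well, -0.090 without pair 8 and -0.036 without pair 6, which alone stood at -1.21. Dkc1 encodes the pseudouridine synthase of the box H/ACA class. It ran from 892 through 1667 to 2767 in saline and from 546 through 1460.5 to 2559 in JA16 samples, and replicate 8 was lowest in both groups. The difference was -0.19 (SE 0.12, limma adjusted p = 0.426), and all 3 of its probe sets were lower, at -0.13 to -0.23. Without pair 6 it was -0.090, and without pair 8 -0.13. Nolc1, a chaperone of both classes, was at -0.072 (SE 0.066) on its brightest probe set but at 0.15 and 0.26 on the dimmer ones. Rrp9, a protein of the snoRNP that guides early cleavage of the precursor, was at 0.065 (SE 0.10). In all 3 of 6 were higher, 3 lower and 0 passed.

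Among small-subunit factors Rrp12 stood above the rest. Rrp12, which takes part in maturation and export of the small subunit, had intensities of 335 (lowest), 551 (median) and 771 (highest) in saline and 439.7, 617 and 1004 in JA16 samples. Its lowest value came from replicate 4 in both groups. The difference was 0.26 (SE 0.10, 95% interval 0.046 to 0.48), higher in 8 of 10 pairs, and did not pass (limma adjusted p = 0.241). Both array sets were alike, at 0.27 (SE 0.12) in the first and 0.25 (SE 0.20) in the second. The remaining 4 of this group were nearer 0. Heatr1, a factor that couples transcription to processing, was at 0.0057 (SE 0.099). Utp20 and Nop14, parts of the early processing complex, were at -0.11 (SE 0.15) and -0.076 (SE 0.13). Tsr1, which acts late in the cytoplasm, was at -0.049 (SE 0.094), and at 0.020 with centred medians. For Utp20 the first array set gave 0.094 (SE 0.15) and the second -0.41 (SE 0.24), and without pair 8 the whole was at -0.0061. That gap did not pass as an interaction (-0.51, SE 0.29, limma adjusted p = 0.999), nor did the interaction for any other member.

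Large-subunit factors include Pes1, Bop1 and Wdr12, which form one complex needed for processing of the precursor. The 3 partners did not share a direction as scaled by the authors, though the difference of Pes1 was smaller than its SE. Bop1 ran from 472 through 676 to 1084 in saline and from 469 through 829 to 1628 in JA16 samples. Replicate 8 was highest in both groups, and saline and JA16 samples overlapped over most of the range. The difference was 0.27 (SE 0.094, 95% interval 0.075 to 0.47), higher in 7 of 10 pairs, and it did not pass (limma adjusted p = 0.2). Wdr12 was at 0.087 (SE 0.075), from 1255 ± 323 to 1327 ± 311 (n = 10 each), while its dimmer probe set was at -0.20. Pes1, from 654 ± 257 to 625 ± 236, was at -0.043 (SE 0.12), at 0.11 on its dimmer probe set and at 0.026 with centred medians. Nop2, a methyltransferase of large-subunit RNA whose upstream E-box is shown above, was at 0.098 (SE 0.088). Nip7, an assembly factor, was at 0.11 (SE 0.067), and at 0.22 on its other probe set. Rrp1b, a nucleolar protein, was at -0.10 (SE 0.086). It had the narrowest JA16 values of all 30, from 515 to 612. Ebna1bp2, an assembly factor, was at -0.047 (SE 0.099), at 0.022 with centred medians, and at -0.048 without pair 7. In this group 4 of 7 were higher, 3 lower and 0 passed.

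Multifunctional nucleolar proteins included the lowest differences of all 30, those of Npm1 and Ncl. All 5 were lower in JA16 as scaled by the authors, while Gnl3 and Noc2l were above 0 with quantile normalization or centred medians, and 0 of 5 passed. Npm1, or nucleophosmin, is a histone and ribosome chaperone. It ran from 1673 through 3632 to 6234 in saline and from 1239.7 through 3226 to 5600.2 in JA16 samples. The groups overlapped over most of their range, and replicate 7 was highest in both. JA16 was lower in 8 of 10 pairs, with a difference of -0.36 (SE 0.11, 95% interval -0.60 to -0.12). The value did not pass (limma adjusted p = 0.19 with the block). It was -0.36 in both array sets (SE 0.10 and 0.20), -0.38 without pair 7, -0.26 without pair 8, and -0.33 on the other probe set. Over all genes 10.7% were lower in at least 8 pairs, against 1 of the 30 members, Npm1. Ncl, or nucleolin, which binds the precursor RNA, ran from 686 through 1072 to 2123 in saline and from 485 through 948 to 2381 in JA16 samples. Replicate 7 was highest in both groups. The difference was -0.25 (SE 0.14, limma adjusted p = 0.376), with 6 of 10 pairs lower, and all 5 probe sets were lower, at -0.096 to -0.32. Ncl was at -0.29 without pair 7 and -0.15 without pair 8. Ddx21, an RNA helicase, ran from 2439.8 through 3630.2 to 4534 in saline and from 1973 through 3445 to 4539.6 in JA16 samples (difference -0.18, SE 0.087, limma adjusted p = 0.327). In 7 of 10 pairs JA16 was lower. Ddx21 stood at -0.18 without pair 7 and -0.098 without pair 8, and its dimmer probe set was at 0.011. Gnl3, the GTPase nucleostemin, was at -0.0097 (SE 0.10) and Noc2l, an inhibitor of histone acetylation, at -0.0075 (SE 0.11).

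**Figure D2:**
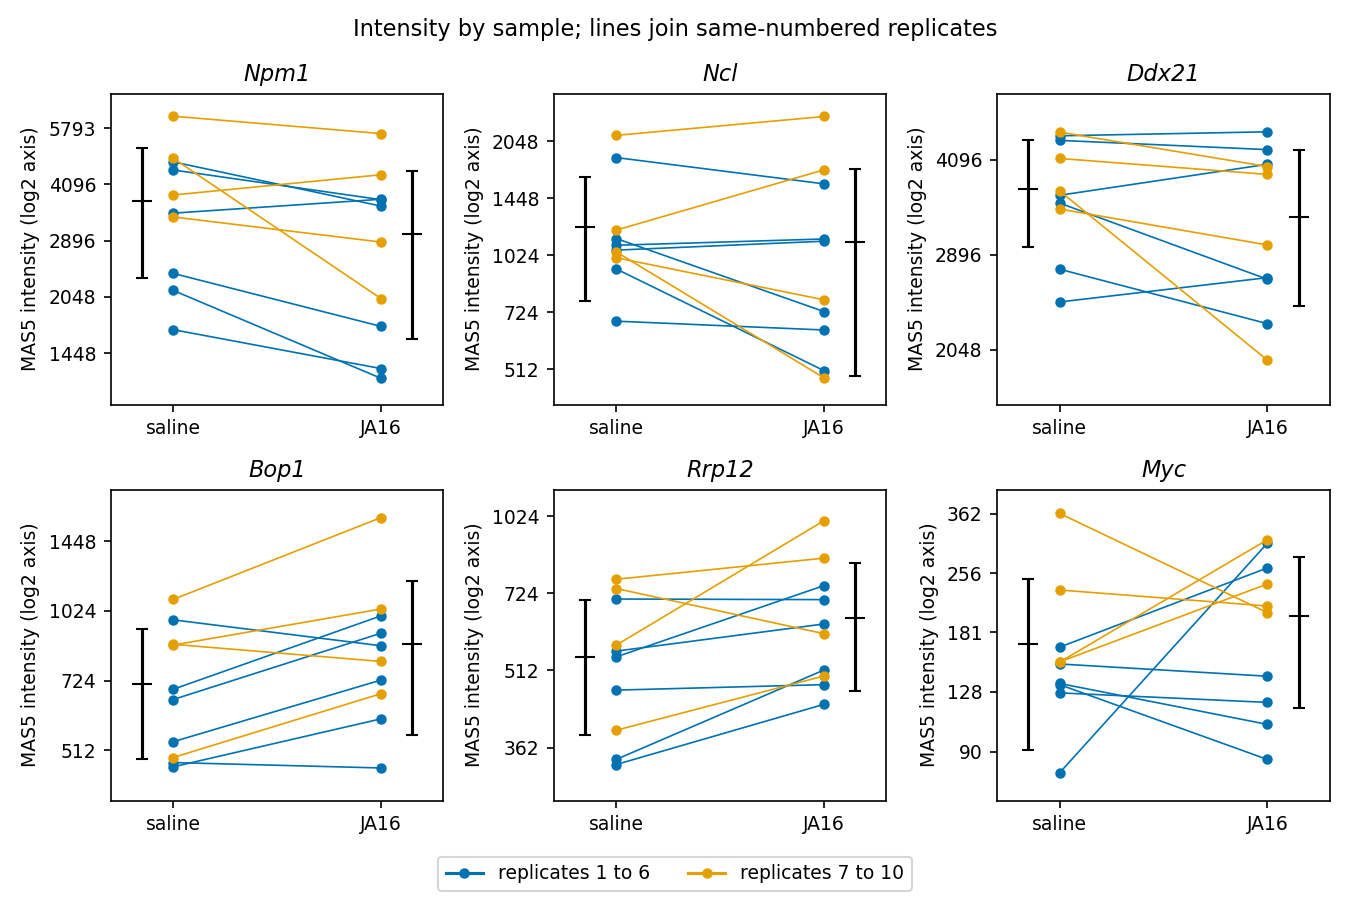
MAS5 intensity (vertical log2 axis) of 6 genes in each sample, with lines joining saline and JA16 samples of one replicate number, coloured by array set, and black bars for mean ± SD (n = 10). Npm1 lines slope down in 8 of 10 pairs and Bop1 lines up in 7, while group ranges overlap in each panel and Myc pair 3 climbs by 1.94 on the log2 scale.

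The SD between pair differences had a median of 0.30 over the members, against 0.34 over all genes. Of 300 member differences, 1 for each gene and pair, 22 were below -0.5 and 15 above 0.5. The share beyond 0.5 over all genes was not taken. Pair 8 held 8 of the low ones, Nop58, Dkc1, Utp20, Nop14, Tsr1, Ncl, Npm1 and Ddx21, together with 3 of the high ones, Myc, Rrp12 and Bop1. Npm1 was at -1.25 in that pair. Pair 6 held 5 low values, Nop58, Dkc1, Nop14, Ncl and Npm1, all of which were also low in pair 8. In pair 10, by contrast, Nop58 was at 0.86 and Ncl at 0.53, and no member was below -0.5. Pair 5 held no value beyond 0.5 in either direction. Across pairs the number of members higher in JA16 ran from 11 in pair 9 to 19 in pairs 7 and 10, and the median over members from -0.15 in pair 8 to 0.13 in pair 10. The JA16 minus saline difference in the beta-actin ratio was -0.50 in pair 6 and -0.41 in pair 5, which held 5 low values and none. It was -0.11 in pair 8, which held 8, and between -0.21 and 0.14 in the other pairs. Only pair 2, at 0.14, and pair 7, at 0.11, were above 0, so the ratio was mostly lower in JA16. For the Gapdh ratio only pair 2, at 0.038, and pair 10, at 0.049, were above 0. The part of either ratio in the member differences was not tested.

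**Figure D3:**
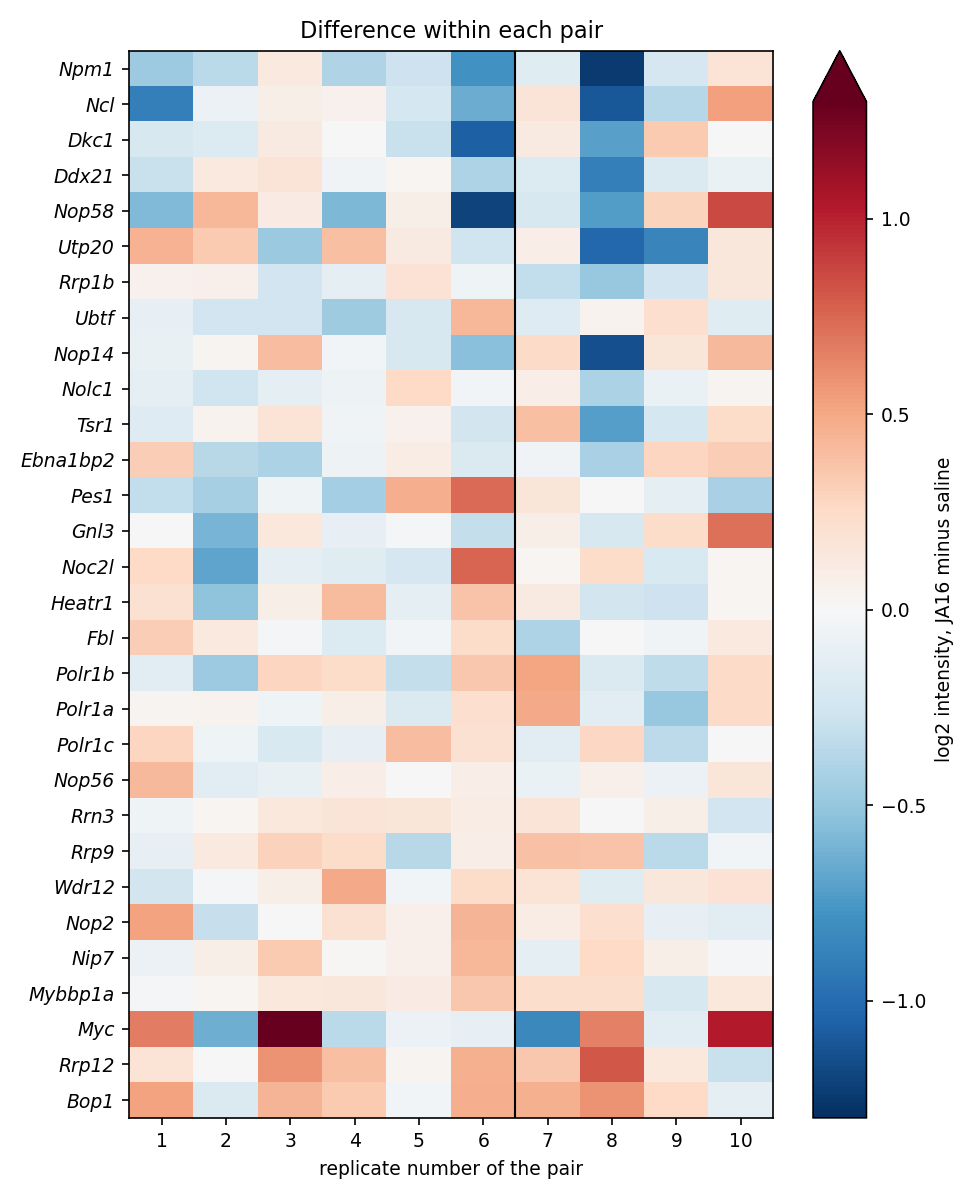
Log2 intensity of JA16 minus saline within each of the 10 pairs (columns) for the 30 genes (rows, from the lowest to the highest mean difference), with blue for lower and red for higher in JA16; the Myc value of pair 3, at 1.94, lies past the end of the colour scale, and the black line parts replicates 1 to 6 from 7 to 10. Npm1, Ncl, Ddx21, Nop14 and Utp20 are dark blue in pair 8, where Rrp12 and Bop1 are red.

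Mean levels in the 2 array sets were set beside the treatment differences without a test, and what underlies the sets was not tested. For 26 of 30 the mean difference between replicates 7 to 10 and 1 to 6 was larger than the difference between JA16 and saline in both groups, as it was for 71.5% of all genes. Treatment differences lay within 0.1 of 0 for 18 members, so small set differences counted too. Polr1c, for example, was at 0.056 in saline and -0.084 in JA16. The exceptions were Rrp9, Rrp1b, Ncl and Ddx21. Levels in replicates 7 to 10 were higher for 19 genes in both groups, lower for 8, and mixed for 3. In saline the gap was 0.96 for Ebna1bp2, 0.92 for Noc2l and 0.90 for Pes1 at one end, and -0.89 for Dkc1 and -0.80 for Gnl3 at the other. The sets did not overlap for Ebna1bp2 and Wdr12, higher in replicates 7 to 10, and Rrn3, lower there, which is 3 of 30 members (10%) against 11.6% of all genes. Treatment differences had the same sign in both sets for 20 of 30 members, or 66.7%, against 65.0% of all genes, and 0 members passed within either set. At an unadjusted p under 0.05 there was no member in the test of the difference between sets, against 300 of 11200 genes.

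**Figure D4:**
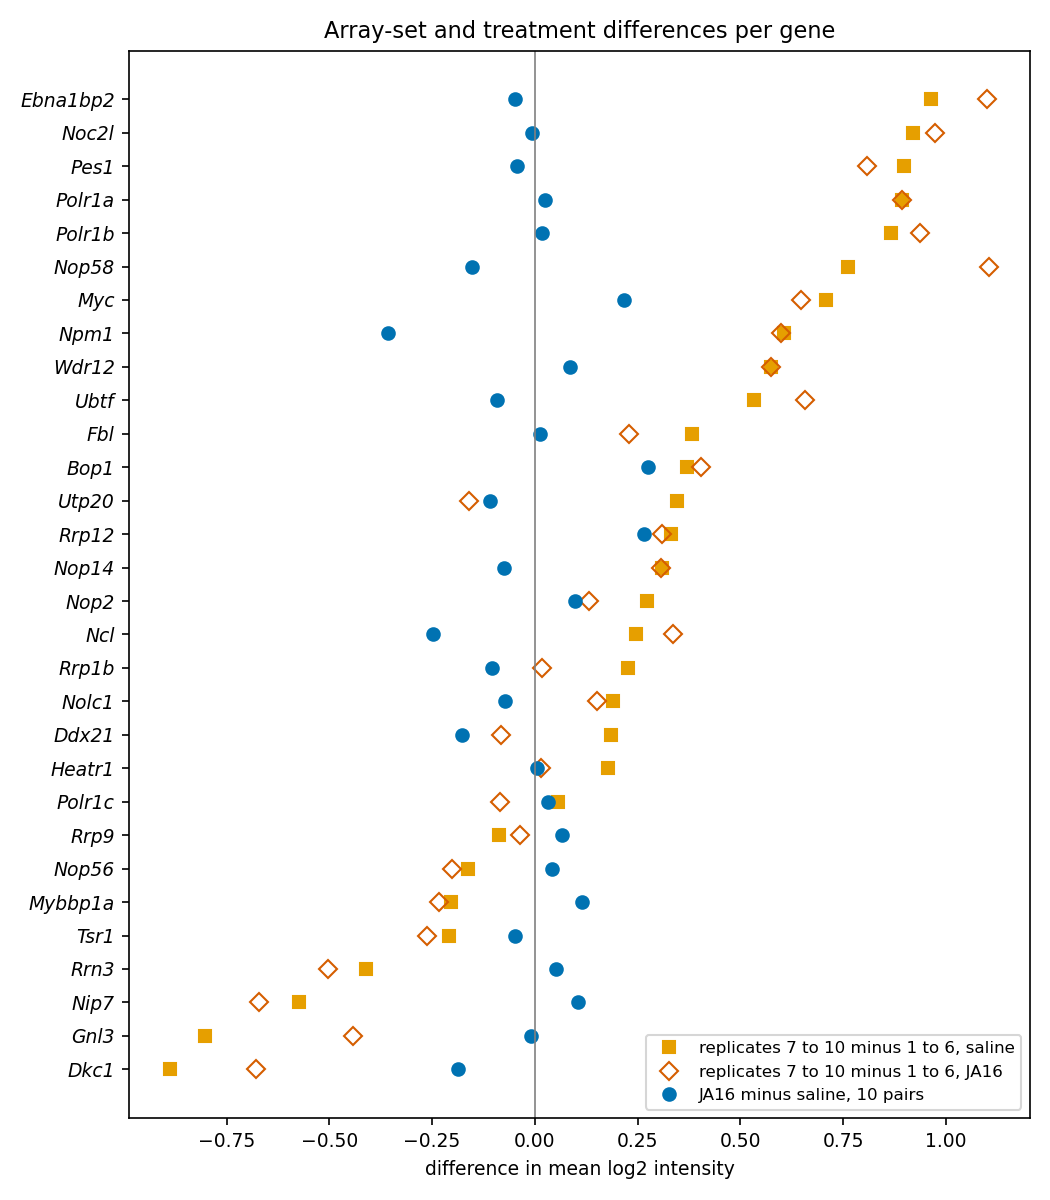
Difference in mean log2 intensity for the 30 genes: replicates 7 to 10 minus 1 to 6 in saline (filled squares) and JA16 (open diamonds), and JA16 minus saline over 10 pairs (circles). Set differences in saline reach from -0.89 for Dkc1 to 0.96 for Ebna1bp2, while treatment differences stay between -0.36 and 0.27.

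Other genes of the pathway had no call either. Of 106 further ribosome biogenesis genes listed, 102 were tested, 51 were higher and 51 lower (69 and 33 with centred medians), and 0 passed in either direction. Their median was -0.0049, and 0.064 with centred medians, against -0.016 and 0.054 over all genes. At an unadjusted p under 0.05 there were 5 higher and 6 lower, against 7.49% and 8.76% of all genes. For polymerase I the smallest p were those of Polr1e, a subunit, at 0.27 (SE 0.088, limma adjusted p = 0.196), and Twistnb, another subunit, at -0.25 (SE 0.12, limma adjusted p = 0.334). Among snoRNP assembly factors Znhit6 was at -0.34 (SE 0.10) and Znhit3 at 0.29 (SE 0.091). In the small-subunit list Bysl was at 0.26 (SE 0.11) and Wdr43 at -0.39 (SE 0.17; -0.052 without cross-matching probe sets), and in the large-subunit list Nvl was at -0.29 (SE 0.11) and Rpf2 at 0.20 (SE 0.075). Each of these lists thus held its 2 smallest p on opposite sides of 0.

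Partners and rivals of Myc were measured as well. Of 13 genes in the network 11 were tested, 5 higher and 6 lower (6 and 5 with quantile normalization or centred medians), and 0 passed. Mxi1 encodes a repressor that competes with Myc for Max. It was lower in 9 of 10 pairs, from a mean of 4330.0 ± 794 to 3737 ± 834 (n = 10 each; difference -0.22, SE 0.064, limma adjusted p = 0.159). Mlxipl, a related glucose-responsive factor, was at 0.18 (SE 0.092). Known Myc targets outside the nucleolus leaned to higher values, 14 of 19 tested, with a median of 0.069 against -0.016 over all genes, and 0 passed. With quantile normalization the same numbers of them were higher and lower, and the median was 0.037 against 0.0046. With centred medians 18 were higher and 1 lower, and the median was 0.14 against 0.054. At an unadjusted p under 0.05 there were 5 higher and 0 lower, against 7.49% and 8.76% of all genes. Without the block there were 3 of 19, against 2.65% of all genes. The smallest p were those of Odc1, the enzyme that opens polyamine synthesis, at 0.35 (SE 0.084, limma adjusted p = 0.105), and Umps, which completes uridine monophosphate, at 0.48 (SE 0.13, limma adjusted p = 0.132). Each was higher in 8 of 10 pairs. Odc1 passed without pair 1 (limma adjusted p = 0.0469) or pair 2 (limma adjusted p = 0.0295), and under no other alternative. Its limma adjusted p was 0.189 without cross-matching probe sets and 0.239 with centred medians. With the array set as block it was 0.477, and without a block 0.99983. The list is one of known targets and not of targets measured in this muscle, and the difference between it and the ribosome biogenesis genes was not tested. It was chosen with earlier results of these data known, so its counts and medians are a description and not a test.

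Control probe sets for 18S ribosomal RNA, a product of the pathway, lie outside the gene table and were looked at after the other values. Whether their signal follows the amount of that RNA was not tested. The brightest of 3, in the middle of the RNA, had intensities of 13815 ± 2205 in saline and 14694 ± 2464 in JA16 samples (n = 10 each), with 4 of 10 pairs higher and a mean difference of 0.088 (SD between pairs 0.25). The 3' and 5' probe sets differed by 0.047 and 0.15, with SDs of 0.46 and 0.72. These SDs describe single pairs and not the error of the mean, and the 3 differences were not tested. Arrays scaled to one trimmed mean carry no measure of ribosomal RNA per cell.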

How the data were processed

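The authors deposited MAS5 intensity values, 1 per probe set and array, on a linear scale; MAS5 is named in the submitters' processing notes, while no source used here gives the target intensity, masking or calls of presence. All 20 arrays share a mean of 500.0 with the lowest and highest 2% of 45101 probe sets left out, and medians ran from 38.9 to 77.1. The number of arrays limits the precision. The platform annotation gave 1 gene for 34945 probe sets, of which 34741 matched a RefSeq identifier (GRCm38.p6) with no symbol to update, and several genes for 932, which were not named. Coordinates are those of the RefSeq promoter table; the array table names no build.

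Values at or below 0 (5) were set to 0.1 and log2 was taken. Genes entered by their brightest probe set if its mean log2 was at least the median of all probe sets (5.65), which left 11200. The test was that of limma 3.58.1 under R 4.3.3 (lmFit, eBayes with trend, two-sided, Benjamini-Hochberg over all genes, threshold 0.05), with the replicate number as a block. The script was tested on simulated data. The replicate numbers come from the labels. Same-numbered samples deviated together in all 10 pairs (correlations 0.377 to 0.786, against a limit of 0.1, and a median of -0.11 between other numbers). Such samples always share an array set, and the set difference was left in these values. The correlations therefore cannot tell pairing by number from sharing a set. Array numbers in the labels are lower for saline in each pair, so order and treatment cannot be told apart. No array copied another (correlations 0.88 to 0.937).

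The 30 genes were those listed by symbol; of each further pathway list the genes past the threshold, or else the 2 with the smallest p, are named. Members and lists were chosen with earlier results of these data known. Marker lists served as checks of the tissue. Python 3.11.15, pandas 2.3.3, numpy 2.4.6 and matplotlib 3.10.9 were used for joins and figures. Alternatives tried were the fit without the block, quantile normalization, centred medians, log2 of intensity plus 16, all probe sets of a gene, probe sets without cross-matching endings, no filter, eBayes without trend, the array set as block, and each pair left out.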

Additional observations from a re-analysis of the deposited data

How the results depend on the processing

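In limma 0 of the 30 members passed under each alternative run and with each pair left out, and the lowest adjusted p of any member was 0.124, that of Npm1 without pair 10. The fit without the replicate block changed no member's call and left 4 genes called over the whole table, against 31 with it; centred medians gave 10, the mean over all probe sets 15, eBayes without trend 9, and the array set as block 9. With 1 pair left out the count ran from 10 (without pair 4) to 51 (without pair 1), and it was 11, 14, 16 and 16 without pairs 6, 7, 8 and 9. The mean over all probe sets took 2 members below the filter, Polr1a and Ebna1bp2, and leaving out cross-matching probe sets took out Tsr1. With centred medians Tsr1 was at 0.020, Pes1 at 0.026, Ebna1bp2 at 0.022, Gnl3 at 0.060 and Noc2l at 0.062, and with quantile normalization Gnl3 was at 0.023 and Noc2l at 0.032. With the mean over all probe sets Ubtf was at 0.035, Fbl at -0.012, Nolc1 at 0.12, Heatr1 at -0.064 and Pes1 at 0.033, and without cross-matching probe sets Fbl was at -0.037. With 1 pair left out the range took in both signs for Polr1a (-0.028 to 0.081), Polr1b (-0.038 to 0.072), Polr1c (-0.0099 to 0.073), Fbl (-0.021 to 0.059), Nop56 (-0.0014 to 0.061), Heatr1 (-0.039 to 0.064), Nop14 (-0.13 to 0.042), Tsr1 (-0.098 to 0.025), Pes1 (-0.13 to 0.0011), Gnl3 (-0.090 to 0.057) and Noc2l (-0.093 to 0.068). The cause of these shifts was not tested. The other 16 members kept their sign under all of these.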
